A study of Mus musculus with 2 samples.

Results

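The genes described here make retinoic acid or receive it. They are the retinaldehyde dehydrogenases Aldh1a1 and Aldh1a2, the retinol dehydrogenases Rdh10 and Rdh11, the retinal reductase Dhrs3, the retinoic acid receptors Rara and Rarg, and the retinoid X receptors Rxra and Rxrb. Every probe set (a group of probes for the transcripts of a gene) whose only annotated gene was a member was taken, which gave 12 probe sets of 22690 for the 9 genes, of 12393 named on the array. Rdh11, Rarg and Rxra had 2 probe sets each and the other genes had 1. RNA came from eosinophils (CD11b+, CD11c intermediate, MHCII-, SiglecF+) and from dendritic cells (CD11c+MHCII+), both sorted from lamina propria of the small intestine and labelled as unstimulated, with 1 array each. The mice were C57BL/6 and 8 weeks old. The labels name no transgene, deletion or treatment in either population, and the sources used here do not say how many mice were pooled.

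Retinoic acid is made from vitamin A in consecutive oxidations. Retinol dehydrogenases turn retinol into retinal reversibly, retinaldehyde dehydrogenases turn retinal into retinoic acid irreversibly, and retinal reductases run the first step backwards. Retinoic acid then binds a retinoic acid receptor (RAR), which sits on DNA as a pair with a retinoid X receptor (RXR). In the gut wall, CD103+ dendritic cells are known to make retinoic acid through Aldh1a2, and the lymphocytes they activate then carry the gut homing receptors CCR9 and alpha4beta7.

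The values are MAS5 signals, a linear brightness per probe set. The deposited arrays share a scale, since the mean signal without the lowest and highest 2% was 499.9 on both. The median signal was 148.1 units on the eosinophil array and 122.0 units on the dendritic cell array. The median of all signals pooled, 134.7 units, served as a floor. A ratio with 1 side under it is a lower bound, written "at least", and a probe set under it on both arrays was given no ratio. Counts past a fold take such a ratio at its bound, so a probe set not counted may still be that far apart. Signals up to 190.6 units, the 95th percentile of 24 genes of germ cells, lens, hair and sensory cells, may still be background. Replicate error could not be had from 1 array each, so no test was made and each difference describes these arrays. In bulk RNA, fewer cells of a type and less RNA per cell cannot be told apart.

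Siglecf and MHC class II followed the gates, Itgax separated the arrays little, Itgam gave only a bound, and other markers followed the labels. Siglecf, which encodes the gating lectin of eosinophils, gave 6977 units in eosinophils, against 112.3 units in dendritic cells. H2-Aa, an MHC class II chain, gave 155.4 units in eosinophils, against 34014.5 units in dendritic cells, while Itgax, which encodes CD11c, gave 4846 units in eosinophils, against 5994 in dendritic cells. Itgam, the CD11b gene, gave 227.0 units in eosinophils, against 87.1 in dendritic cells. The dendritic cell signal of Itgam is under the floor, so it was at least 1.68-fold brighter in eosinophils. Of 8 measured eosinophil markers, 7 passed 4-fold toward eosinophils, although the granule genes Prg2 and Prg3 were under the floor on both arrays. Of 13 measured dendritic cell markers, 10 passed 4-fold toward dendritic cells, among them Itgae, which encodes CD103, at 55.2 units in eosinophils, against 7961 units in dendritic cells.

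The genes of retinoic acid synthesis and reception stood toward different arrays. Aldh1a2, the enzyme of the last step, was brighter in dendritic cells by at least 8.71-fold. Rxra was 6.06-fold brighter in eosinophils by its brighter probe set, Rdh10 was 3.66-fold brighter there, and Rdh11 was at least 2.44-fold and at least 2.54-fold brighter there by its separate probe sets. Rxrb was 1.34-fold brighter in eosinophils. For Rara and Dhrs3 the arrays give bounds of at least 1.14-fold and at least 1.01-fold toward dendritic cells, and Aldh1a1 and Rarg were under the floor on both arrays.

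Of the 12 member probe sets, 3 were above the floor on both arrays, 2 on the eosinophil array only, 3 on the dendritic cell array only and 4 on neither. Among the 8 measured, 1 passed 4-fold toward eosinophils (Rxra) and 1 toward dendritic cells (Aldh1a2). Over all 13779 measured probe sets these shares were 4.8% for eosinophils and 5.1% for dendritic cells. At 2-fold, 4 of the 8 were brighter in eosinophils (Rxra, Rdh10 and both of Rdh11), beside 18.5% of all measured probe sets, and 1 was brighter in dendritic cells, beside 15.3%. The median log2 difference, eosinophils minus dendritic cells, was 0.86 over the 8 and 0.14 over all measured probe sets. Rdh11 enters the 8 by both its probe sets. Read by 1 probe set a gene, the median was 0.43 over the 7 measured member genes and 0.16 over all measured genes. By gene, 3 of the 7 passed 2-fold toward eosinophils, beside 19% of all measured genes, and 1 toward dendritic cells, beside 15.5%. The median over member probe sets moved to 0.43 with the floor at the 25th percentile and to 1.19 with none, where more member probe sets count as measured. The spike controls added at hybridisation read 2.06-fold brighter in eosinophils. With the arrays centred on them, the median became 0.11 over the members and -0.63 over all measured probe sets, and no member remained at 4-fold in eosinophils while 1 did in dendritic cells.

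**Figure D1:**
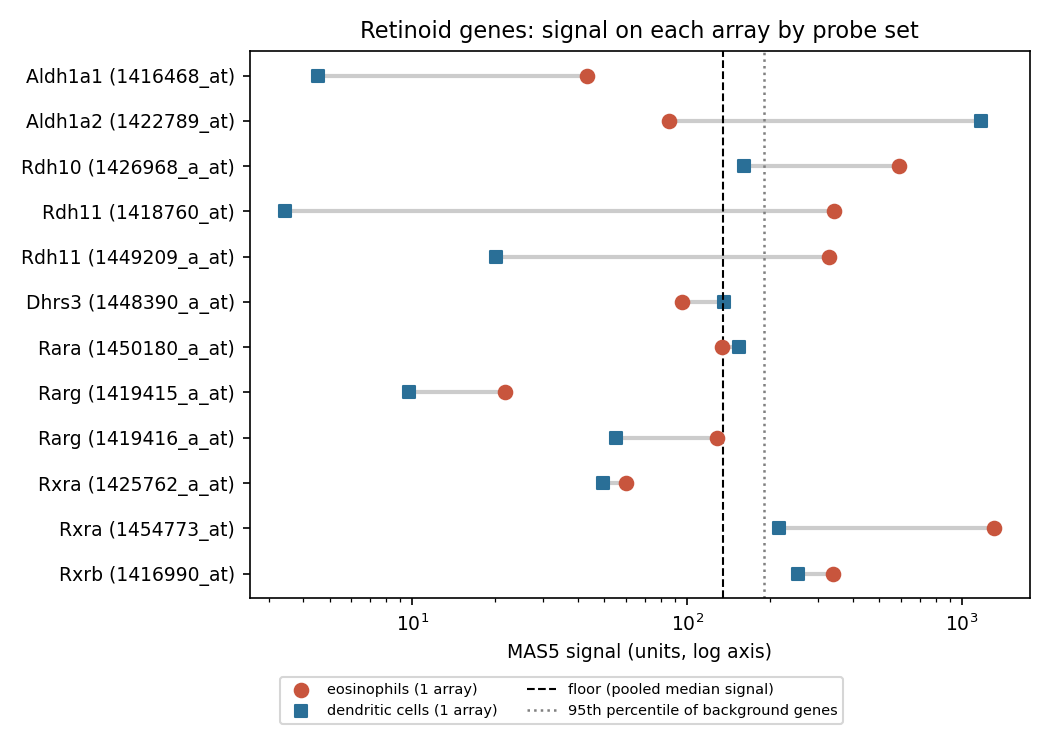
MAS5 signal (log axis, units) of each of the 12 member probe sets on the eosinophil array (circles) and the dendritic cell array (squares), 1 array each, with the floor of 134.7 units dashed and the 95th percentile of background genes dotted. Aldh1a2 has its square at 1174 units and its circle under the floor, whereas Rdh10, both Rdh11 probe sets and the brighter Rxra probe set have their circles far to the right of their squares.

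The promoter windows of 3 genes are printed because the contrast between the arrays turns on them: Aldh1a2 as the gene brighter in dendritic cells, and Rxra and Rdh11 as genes brighter in eosinophils. The windows run from 250 bases before to 50 bases after a transcript start and come from RefSeq on GRCm38.p6, where 8 of the 9 genes matched, with 18 windows; the other is Rdh10. Capitals mark letters found by search on both strands. The search covered the classical hexamer of RAR and RXR, spelled AGGTCA, with a variant spelled AGTTCA, another variant spelled GGGTCA, and the last variant spelled GGTTCA. It also covered the GC box that SP1 binds, spelled GGGCGG, and the TATA box, spelled TATAAA. These motifs do not overlap each other in the printed windows. Each window is the most upstream start in the table.
Aldh1a2, chr9:71215539-71215838, plus strand: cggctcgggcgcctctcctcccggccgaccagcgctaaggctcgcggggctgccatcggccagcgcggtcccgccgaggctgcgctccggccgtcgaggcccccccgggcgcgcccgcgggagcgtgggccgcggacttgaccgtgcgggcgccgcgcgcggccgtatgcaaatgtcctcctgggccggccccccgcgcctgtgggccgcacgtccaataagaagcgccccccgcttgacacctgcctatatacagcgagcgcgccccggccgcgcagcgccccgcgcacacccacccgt
Rxra, chr2:27676951-27677250, plus strand: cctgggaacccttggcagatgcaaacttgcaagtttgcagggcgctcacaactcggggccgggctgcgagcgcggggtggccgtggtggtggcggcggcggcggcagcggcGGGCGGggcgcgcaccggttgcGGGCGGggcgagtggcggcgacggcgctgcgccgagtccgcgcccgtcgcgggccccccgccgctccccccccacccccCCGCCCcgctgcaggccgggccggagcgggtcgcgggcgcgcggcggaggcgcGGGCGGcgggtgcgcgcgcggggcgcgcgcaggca
Rdh11, chr12:79191806-79192105, minus strand: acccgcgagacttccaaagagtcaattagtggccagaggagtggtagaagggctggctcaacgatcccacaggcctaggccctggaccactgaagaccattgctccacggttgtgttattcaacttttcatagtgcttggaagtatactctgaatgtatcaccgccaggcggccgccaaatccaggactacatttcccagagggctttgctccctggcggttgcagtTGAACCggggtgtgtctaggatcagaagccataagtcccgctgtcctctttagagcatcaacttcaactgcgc

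The windows of Aldh1a2 and Rxra were rich in G and C, at 78.0% and 83.0% of bases with 50 and 55 CpG dinucleotides, against a median of 52.7% over 32851 windows of the same length. The window of Rdh11 held 53.3% and 11 CpG dinucleotides. None of the searched letters occurred in the Aldh1a2 window. The Rxra window held 4 GC boxes, which 35.7% of all windows contain at least once, and the Rdh11 window held the reverse complement of GGTTCA with its first base at -23 from the start, a hexamer present in 10.4% of all windows. Rxra and Rdh11 each have a further window, at a later start and not printed. That of Rxra held AGGTCA at -48, its reverse complement at -87 and the reverse complement of GGGTCA at -105. That of Rdh11 held AGGTCA at -147. AGGTCA was present in 16.3% of all windows and GGGTCA in 13.7%. At least 1 of the 4 hexamers stood in 7 of the 18 member windows and in 43.7% of all windows. A direct repeat of hexamers spaced by 1, 2 or 5 bases, the arrangement of known retinoic acid response elements, was in none of the member windows and in 0.588% of all. A match is a run of letters and says nothing of binding in these cells.

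Among the synthesis enzymes, Aldh1a2 gave 86.0 units in eosinophils, against 1174 units in dendritic cells. The eosinophil signal was under the floor, so the difference of at least 8.71-fold is a bound, and it was -3.12 on the log2 scale. Of all measured probe sets, 1.60% stood at least as far toward dendritic cells. Aldh1a2 stayed at least 4-fold brighter in dendritic cells under all 10 alternatives that gave it a value, between -3.77 and -2.62. These are not separate checks. With only 1 probe set, the alternatives that average or rank probe sets could only repeat the reported value. The floor at the 25th percentile and no floor gave the same value, since both signals exceed that floor. Aldh1a1, the retinaldehyde dehydrogenase known from intestinal epithelium, gave 43.2 units in eosinophils, against 4.54 units in dendritic cells. Both lie under the floor, where signals have no order, so no difference was detectable at this brightness.

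Rdh10, the main retinol dehydrogenase of the mouse embryo, gave 587.7 units in eosinophils, against 160.5 units in dendritic cells. It was above the floor on both arrays and 3.66-fold brighter in eosinophils (1.87 on the log2 scale). Its dendritic cell signal lies in the range that may be background. With the floor raised to 190.6 units, above that signal, the difference became a bound of at least 1.62. On the spike control scale the difference was 0.83.

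Rdh11, a retinal reductase and retinol dehydrogenase of the endoplasmic reticulum, gave 341.9 and 328.1 units in eosinophils and 3.45 and 20.1 units in dendritic cells by its pair of probe sets. Both probe sets were above the floor in eosinophils only, with bounds of 1.34 and 1.28 on the log2 scale. Since the same floor stands for both dendritic cell signals, the nearness of the bounds shows only that the eosinophil signals were alike. Without a floor the probe sets read 6.63 and 4.03. The size of the bound follows the floor: by the probe set that stands for the gene it was 2.99 when the floor was lowered to the 25th percentile. Dhrs3, which reduces retinal back to retinol and is itself induced by retinoic acid, gave 95.9 units in eosinophils, against 136.5 units in dendritic cells. The dendritic cell signal barely exceeded the floor, and the bound of at least 1.01-fold leaves the populations unseparated at this brightness.

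**Figure D2:**
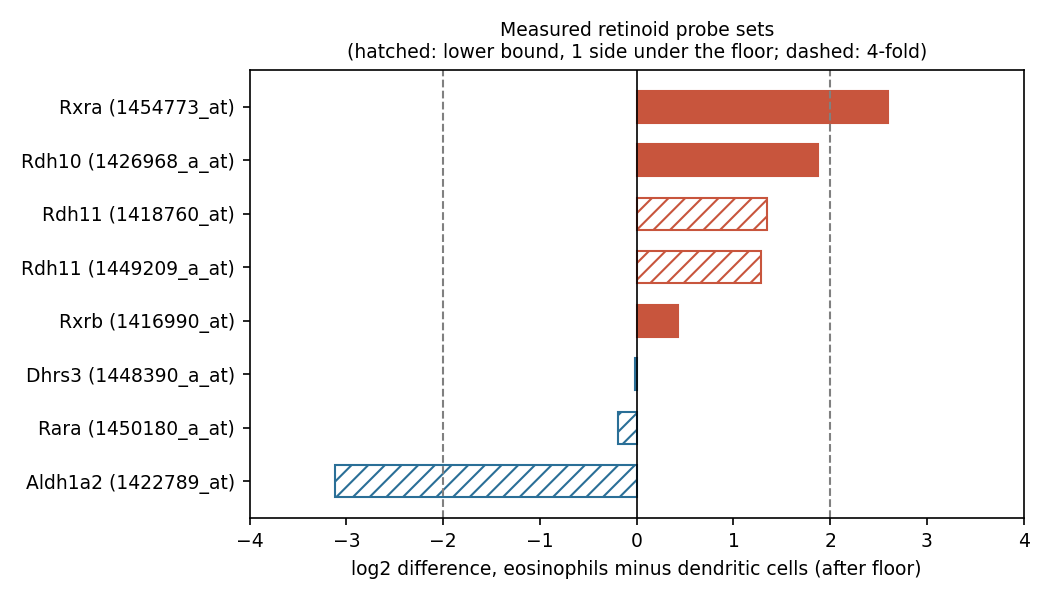
Log2 difference, eosinophils minus dendritic cells, of the 8 measured member probe sets after the floor, with solid bars where both arrays were above it, hatched bars for lower bounds, and dashed lines at 4-fold. Rxra at 2.60 and Aldh1a2 at -3.12 pass the lines in opposite directions, and Rdh10 at 1.87 stops just short.

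Among the receptors, Rxra gave 1309 units in eosinophils, against 215.9 units in dendritic cells by its brighter probe set, a log2 difference of 2.60, and 2.24% of all measured probe sets stood at least as far toward eosinophils. Its other probe set gave 60.0 units in eosinophils, against 49.2 units in dendritic cells, under the floor on both. The gene's difference therefore rests on 1 of its 2 probe sets. Averaging both left a bound of at least 1.06, since the averaged dendritic cell signal lay under the floor, so the averaged difference may be larger. The spike control scale left 1.56, under 4-fold. Rxrb, the other RXR on the list, gave 339.1 units in eosinophils, against 252.4 units in dendritic cells. This 1.34-fold difference (0.43 on the log2 scale) was smaller than the SD between probe sets of the same gene and turned to -0.61 on the spike control scale.

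Rara, the RAR whose gene is fused in acute promyelocytic leukaemia, gave 133.5 units in eosinophils, just under the floor, and 154.2 units in dendritic cells. Both signals lie in the range of background genes, and the bound of at least 1.14-fold does not separate the populations. Rarg gave 128.5 and 21.8 units in eosinophils and 55.1 and 9.70 units in dendritic cells by its probe sets, under the floor on both arrays. The third RAR, Rarb, which retinoic acid induces in many cells, gave 69.9 units in eosinophils, against 83.9 units in dendritic cells, and the third RXR, Rxrg, gave 26.4 units in eosinophils, against 12.1 in dendritic cells. On these arrays no RAR was above the range of background genes in either population, while Rxra and Rxrb were above it in both.

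The other genes of the pathway came from 9 lists (uptake and binding, retinyl esters and carotenoids, other enzymes, breakdown, receptors and partners, coregulators, targets, inputs to Aldh1a2, and aldehyde dehydrogenases). Each gene was read by its probe set of highest mean log2 signal. Of 119 such genes other than the members, 100 were on the array and 62 were measured. Of these, 5 (8.06%) passed 4-fold toward eosinophils and 9 (14.5%) toward dendritic cells, and the background over all 7994 measured genes was 5.35% in each direction. The lists, like the members, were chosen with earlier results of these data known. Shares of list genes, here and below, are therefore descriptive and do not measure enrichment. On the spike control scale the counts were 0 and 17. The median log2 difference was 0.0023 over the 62 genes and 0.16 over all measured genes.

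**Figure D3:**
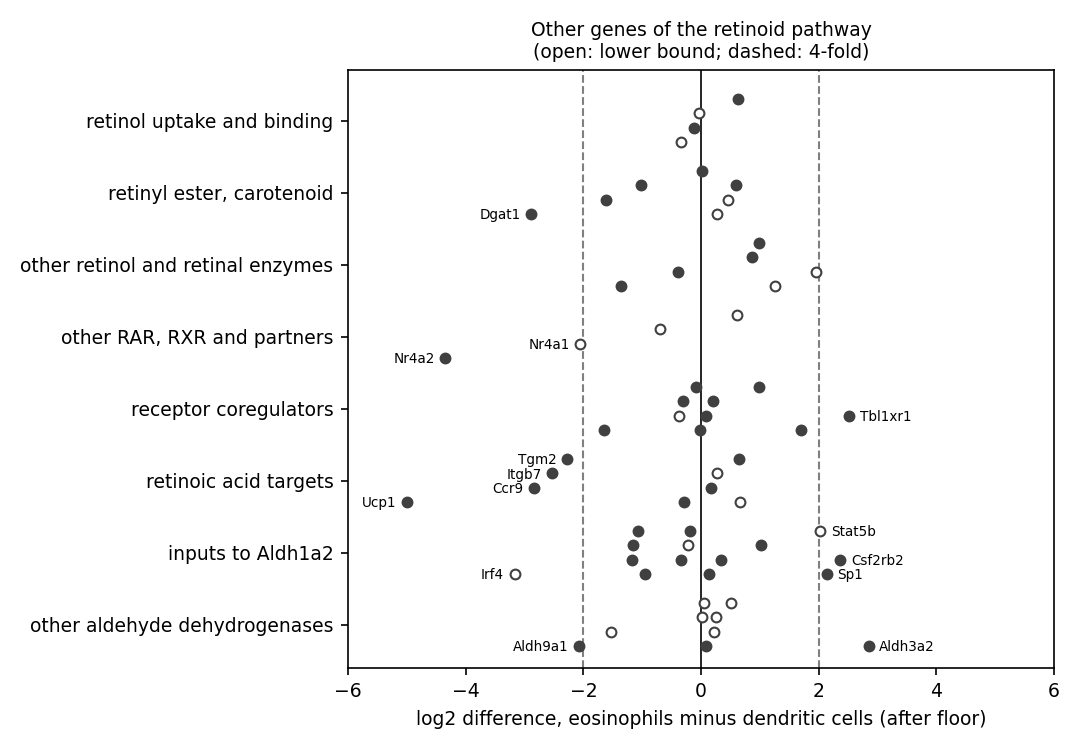
Log2 difference, eosinophils minus dendritic cells, of each measured gene of 8 pathway lists (Lrat is on 2 of them and drawn in both, members left out), with open circles for lower bounds and dashed lines at 4-fold. Genes past 4-fold are named: Ucp1, Nr4a2, Irf4, Dgat1, Ccr9, Itgb7, Tgm2, Aldh9a1 and Nr4a1 toward dendritic cells, and Aldh3a2, Tbl1xr1, Csf2rb2, Sp1 and Stat5b toward eosinophils.

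Among other retinol and retinal enzymes, 6 of 16 on the array were measured, and none had a ratio or bound of 4-fold. Dhrs7, a short-chain dehydrogenase, gave 520.9 units in eosinophils, against 78.7 units in dendritic cells, at least 3.87-fold brighter in eosinophils and 2.73 on the log2 scale without a floor. Rdh12, a close relative of Rdh11, gave 320.9 units in eosinophils, against 60.0 in dendritic cells, at least 2.38-fold and 2.42 on the log2 scale without a floor, with its second probe set under the floor on both arrays. Adh5, an alcohol dehydrogenase that mainly handles formaldehyde, was 2.58-fold brighter in dendritic cells, at 1359 units in eosinophils, against 3505 units in dendritic cells. Aldh1a3, the third retinaldehyde dehydrogenase, was under the floor by the probe set that stands for it, at 8.81 units in eosinophils, against 51.8 units in dendritic cells. Adh1, Adh4, Adh7, Aldh8a1, Rdh1, Rdh5, Rdh7, Rdh13 and Rdh16 were also under it on both arrays.

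Of the breakdown enzymes, Cyp26a1, which oxidises retinoic acid and is induced by it, gave 103.3 units in eosinophils, against 33.2 units in dendritic cells, and Cyp2s1 gave 73.2 units in eosinophils, against 130.5 in dendritic cells, all under the floor. Cyp26b1 and Cyp26c1 had no probe set of their own in the annotation. Among 10 uptake and binding genes on the array, 4 were measured and none had a ratio or bound of 2-fold by the probe set that stands for it. For Rbp7 and Lrp2, under the floor in eosinophils, these are bounds of at least 1.27-fold and at least 1.02-fold toward dendritic cells. Fabp5, which can carry retinoic acid to other nuclear receptors, gave 639.8 units in eosinophils, against 696.9 units in dendritic cells, although its second probe set stood toward dendritic cells by at least 2.59-fold. Stra6, Crabp1, Crabp2, Rbp2, Ttr and Lrp1 were under the floor on both arrays by the probe sets that stand for them.

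Of 7 measured storage and lipid genes, 3 passed 2-fold toward dendritic cells and 0 toward eosinophils, beside 15.5% and 19% of all measured genes. Dgat1, which esterifies retinol as well as diacylglycerol, gave 535.2 units in eosinophils, against 3965 units in dendritic cells, 7.41-fold brighter in dendritic cells. Scarb1, a lipoprotein and carotenoid receptor, was 3.07-fold brighter in dendritic cells (317.5 units in eosinophils, 974.0 in dendritic cells), with its 3 probe sets between -2.21 and -0.96 on the log2 scale. The lipase Lipe was 2.02-fold brighter there (216.2 units in eosinophils, 436.2 in dendritic cells). Lrat, the dedicated retinol esterifying enzyme, gave 163.8 units in eosinophils, against 115.3 units in dendritic cells, both within the range of background genes.

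Among receptors that pair with RXR, 4 of 14 were measured. Nr4a2, an orphan receptor of the early response, gave 161.9 units in eosinophils, against 3302 units in dendritic cells, 20.4-fold brighter in dendritic cells (-4.35 on the log2 scale), and its other probe set gave a bound of -4.49. Its relative Nr4a1 stood toward dendritic cells by at least 4.15-fold (36.1 units in eosinophils, 558.9 in dendritic cells). The vitamin D receptor Vdr was under the floor in eosinophils by both probe sets, and stood toward dendritic cells by at least 1.62-fold by the probe set that stands for it and at least 7.63-fold by the other. Nr1h3, Ppara, Ppard, Pparg, Thra, Nr1h4, Nr1i2 and Nr1i3 were under the floor on both arrays by the probe sets that stand for them.

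Coregulators of nuclear receptors were measured for 10 of 11 genes. Tbl1xr1, a subunit of the corepressor complex, gave 4207 units in eosinophils, against 733.2 units in dendritic cells, 5.74-fold brighter in eosinophils, but log2 differences of its 4 probe sets spanned 0.46, a bound, to 3.72. The corepressor scaffold Sin3a was 3.26-fold brighter in eosinophils (725.7 units in eosinophils, 222.4 in dendritic cells), with probe sets from 0.89, a bound, to 1.71. Nrip1, a corepressor induced by retinoic acid, was 3.12-fold brighter in dendritic cells (268.6 units in eosinophils, 838.9 in dendritic cells), with its probe sets at -1.87 and -1.64.

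Of 16 listed targets of retinoic acid on the array, 9 were measured. Of these, 4 passed 4-fold toward dendritic cells and 0 toward eosinophils, beside 5.35% of all measured genes in each direction. The list was chosen with earlier results of these data known, so this share does not measure enrichment. No test was made, and whether retinoic acid bears on these differences was not tested. Ucp1, the uncoupling protein whose enhancer holds a retinoic acid response element in brown fat, gave 143.6 units in eosinophils, against 4605 units in dendritic cells, 32.1-fold. The eosinophil signals of Ucp1 and Nr4a2 lie in the range of background genes, so their folds may be lower bounds. Ccr9 gave 219.8 units in eosinophils, against 1578 in dendritic cells, 7.18-fold, while a second probe set, under the floor in eosinophils, gave at least 1.29-fold with both signals in the range of background genes, and the third was under the floor on both arrays. Itgb7, the beta chain of alpha4beta7, gave 526.1 units in eosinophils, against 3040 in dendritic cells, 5.78-fold. Tgm2, a transglutaminase, gave 694.9 units in eosinophils, against 3352 in dendritic cells, 4.82-fold, with its 5 measured probe sets between -2.34 and -0.35, the smaller values being bounds. Itga4, the alpha chain that pairs with Itgb7, was 1.22-fold brighter in dendritic cells by the probe set that stands for it and 2.53-fold by another (204.9 units in eosinophils, 519.0 in dendritic cells). Itgb7 also pairs with Itgae, one of the dendritic cell markers. Some Tgm2 probe sets carry the suffix _x_at, which marks possible binding of other transcripts. Toward eosinophils stood Rarres2, the gene of the attractant chemerin, by at least 1.58-fold and by another probe set at least 2.88-fold. Hic1 (0.65 on the log2 scale), Lrat (0.28 as a bound) and Bhlhe40 (0.16) stood the same way. Rarb, Cyp26a1, Stra6, Stra8, Crabp2, Hoxb1 and Pdk4 were under the floor on both arrays.

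Inputs linked to Aldh1a2 expression in dendritic cells were measured for 15 of 17 genes on the array, Rara included. Irf4, a transcription factor of intestinal dendritic cells, gave 44.4 units in eosinophils, against 1213 units in dendritic cells, a bound of -3.17 on the log2 scale, with its second probe set under the floor on both arrays. Csf2rb2, a beta chain of the IL-3 receptor, gave 10694 units in eosinophils, against 2065 units in dendritic cells, 5.18-fold brighter in eosinophils, and the common beta chain Csf2rb gave 5868 units in eosinophils, against 6670 in dendritic cells. The GM-CSF receptor alpha chain Csf2ra gave 2191 units in eosinophils, against 4905 units in dendritic cells, but its probe sets differed by -1.16 and 1.14. Sp1, a transcription factor that binds GC boxes, was 4.43-fold brighter in eosinophils (1803 units in eosinophils, 407.1 in dendritic cells), with its other probe set under the floor on both arrays. The signal transducer Stat5b was at least 4.09-fold brighter in eosinophils (550.9 units in eosinophils, 70.7 in dendritic cells), with its second probe set under the floor on both arrays. Its relative Stat5a was 2.10-fold brighter in dendritic cells (1471 units in eosinophils, 3096 in dendritic cells), its other probe set also being under the floor on both. The prostaglandin receptor Ptger4 was 2.25-fold brighter in dendritic cells (2691 units in eosinophils, 6048 in dendritic cells). Of the 15, 4 passed 2-fold toward eosinophils and 4 toward dendritic cells, beside 19% and 15.5% of all measured genes.

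Markers of other cells were read on the same arrays. Of 12 macrophage markers, 4 were above the floor in eosinophils and 6 in dendritic cells, summing to 2632 units in eosinophils and 15006 in dendritic cells, with Lyz2 (99.2 units in eosinophils, 7813 in dendritic cells) and Cd14 (-4.29 on the log2 scale as a bound) past 4-fold toward dendritic cells, where Aldh1a2 was also brighter. Cd68 (672.4 units in eosinophils, 2573 in dendritic cells), Csf1r (762.6 units in eosinophils, 1121 in dendritic cells) and C1qb (37.5 units in eosinophils, 363.3 in dendritic cells) also exceeded the range of background genes on the dendritic cell array. C1qa, C1qc, Cd163, Mertk, Fcgr1, Mrc1 and Cx3cr1 did not exceed it there, while Mertk (258.5 units) and Cd163 (193.2 units) did on the eosinophil array. Of 13 stromal and endothelial markers, 7 were above the floor in eosinophils and 3 in dendritic cells, summing to 2932 units in eosinophils and 1119 in dendritic cells, with Pdgfra (789.1 units in eosinophils, 54.8 in dendritic cells) and Pecam1 (646.7 units in eosinophils, 55.8 in dendritic cells) brighter in eosinophils, where Rxra, Rdh10 and Rdh11 were also brighter. Acta2 (364.0 units in eosinophils, 143.5 in dendritic cells), Cdh5 (195.3 units in eosinophils, 31.0 in dendritic cells) and Pdgfrb (192.0 units in eosinophils, 21.2 in dendritic cells) also exceeded 190.6 units on the eosinophil array, whereas Col1a1, Col1a2, Col3a1, Col6a1, Dcn, Lum, Kdr and Des did not. The second probe sets of Pdgfra, Pdgfrb and Cdh5 were under the floor on both arrays, and that of Acta2 gave 0.16 on the log2 scale. Of 13 epithelial markers, 5 were above the floor on each array, summing to 2161 units in eosinophils and 1852 in dendritic cells, led by Krt18 at 869.6 units in eosinophils and Cldn7 at 530.2 units in dendritic cells, with Epcam at 433.3 units in eosinophils and 336.4 in dendritic cells. Of 11 lymphocyte and plasma cell markers, 3 were above the floor on each array, summing to 1045 units in eosinophils and 5434 in dendritic cells, with Cd8a, which some dendritic cells also express, at 140.9 units in eosinophils, against 3732 in dendritic cells. Cd3e (335.6 units in eosinophils, 557.0 in dendritic cells) exceeded the range of background genes on both arrays. Sdc1 (74.2 units in eosinophils, 524.7 in dendritic cells) exceeded it on the dendritic cell array. Cd3g, Cd3d, Cd4, Cd79a, Cd79b, Ms4a1, Jchain and Nkg7 did not exceed it on either. Of 11 mast cell and neutrophil markers, 2 were above the floor on each array, summing to 940.7 units in eosinophils and 969.5 in dendritic cells. Whether such cells were present, and their part in the differences of the members, was not tested.

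**Figure D4:**
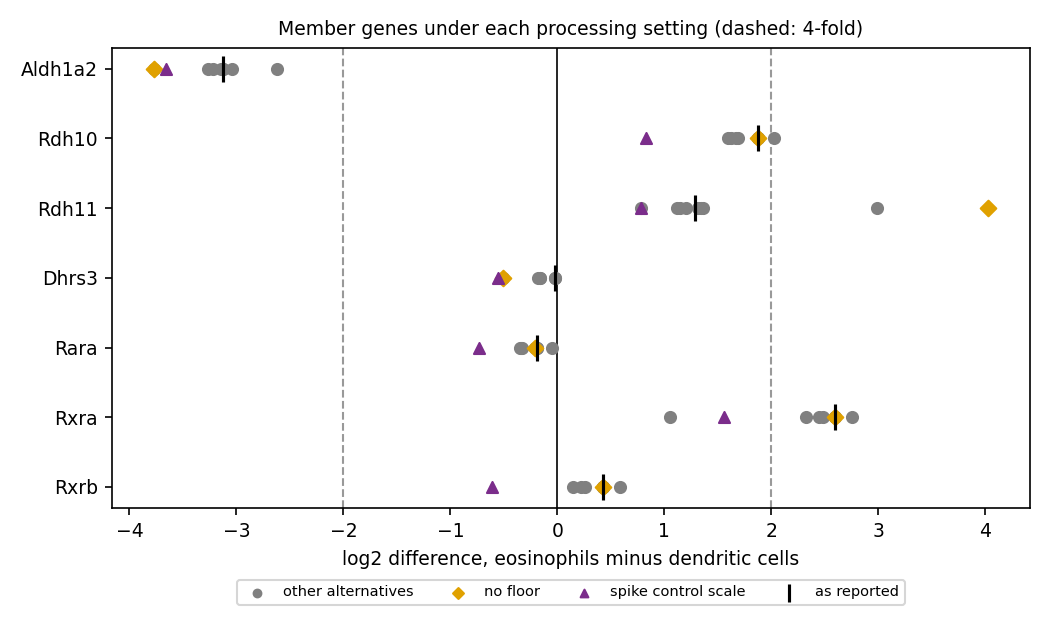
Log2 difference, eosinophils minus dendritic cells, of the 7 measured member genes as reported (vertical ticks), without a floor (diamonds), on the spike control scale (triangles) and under the other alternatives (circles), with dashed lines at 4-fold. Aldh1a2 stays left of -2 throughout, Rxra falls under 4-fold on the spike control scale, and Rxrb crosses 0 there. With its probe sets averaged, Rxra is drawn under 4-fold at a lower bound.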

How the data were processed

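Labelled cDNA from 1 eosinophil and 1 dendritic cell preparation was measured on 3' expression arrays. The deposited intensities are linear signals. Per the submitters' processing notes they came from MAS5, version 5.0, and no detection calls or genome build are given in the sources used here. The members and lists were chosen with earlier results of these data known.

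Of 22690 probe sets, 64 were controls, 20393 had 1 gene in the platform annotation, 691 had several and 1606 were not listed. Symbols were updated by Entrez identifier for 20364 probe sets (RefSeq, GRCm38.p6), giving 12393 genes. Signals were raised to a floor at the pooled median and log2 ratios taken (pandas 2.3.3, numpy 2.4.6), with 4-fold as the mark. The floor and ratio were run on simulated data as a check of the calculation. Changes were planted only in probe sets with a mean signal at least 2-fold above the floor. The check therefore does not cover changes in probe sets nearer the floor. Named genes were every member probe set, pathway genes at least 2-fold apart (up to 6 a list), Rarb, Aldh1a3, the Cyp26 genes, the sort genes, and the 3 genes nearest each member past 4-fold. Genes named beyond these were chosen after their values were seen. The pooled SD between probe sets of a gene was 0.73 on the log2 scale (4402 probe sets, 1766 genes). It is not a replicate error, and the number of arrays limits the precision. Alternatives covered scaling, floor, threshold and the choice of probe set.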

Additional observations from a re-analysis of the deposited data

How the results depend on the processing

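The measured member genes were recomputed under other scalings, floors, thresholds and rules for the probe set. Every value of Aldh1a2 stayed negative and every value of Rdh10, Rdh11 and Rxra positive under the alternatives that gave one, and among the 7 measured member genes Rxrb on the spike control scale was the only sign change. For genes with a single probe set, the rules for the probe set could only repeat the reported value. By its second brightest probe set Rxra had no value, since that probe set is under the floor on both arrays. The median of all measured probe sets shifted by -0.21 with median centring, -0.11 with quantile normalization, -0.15 with loess (span 0.3), 0.11 with housekeeping centring and -0.78 with spike centring, and the member median stood 0.65 to 0.75 above it under these scalings, but 0.21 above it with the floor at the 25th percentile (member median 0.43) and 0.96 with no floor (member median 1.19), against 0.71 as reported (member median 0.86). Median, housekeeping and spike centring move all differences by a constant, so they can change this gap only through the floor. Its steadiness under them is no sign of robustness. The spike scale gave a member median of 0.11, 0 member probe sets at 4-fold in eosinophils, and 0 pathway genes at 4-fold in eosinophils with 17 in dendritic cells. Member probe sets at 4-fold in eosinophils numbered 2 with housekeeping centring, where Rdh10 reached 2.03, 3 with the floor at the 25th percentile and 4 with none. At 2-fold they numbered 4, and at 10-fold 0 in eosinophils and 0 in dendritic cells. Pathway genes at 4-fold in eosinophils numbered 3 with median centring, 8 with the lower floor and 18 with none, 2 with probe sets averaged and 3 with the second brightest. Without a floor, 17 passed in dendritic cells. At 2-fold they were 9 and 17, at 10-fold 0 and 2. Fewer or more calls follow by construction from another threshold or floor. Under median, housekeeping and spike centring they follow from the constant shift and the floor, as does the sign change of Rxrb. For the other settings the cause was not tested. Housekeeping genes ranged from -3.14 (Rplp0) to 1.28 (Tbp), so no housekeeping scale is settled. Aldh1a1 and Rarg have no value as reported, being under the floor. No paired analysis was possible because each population has 1 array and no test was made.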

Other observations

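Aldehyde dehydrogenases other than the retinal-oxidising ones also differed. Aldh3a2, which oxidises long-chain fatty aldehydes, gave 4665 units in eosinophils, against 646.9 units in dendritic cells, 7.21-fold brighter in eosinophils by its only probe set. Aldh9a1, which makes a precursor of carnitine, gave 322.7 units in eosinophils, against 1356 units in dendritic cells, and log2 differences of -2.07 and -1.89 by its probe sets. Aldh18a1, an enzyme of proline synthesis, stood toward dendritic cells by at least 2.87-fold (113.8 units in eosinophils, 386.8 in dendritic cells), with measured probe sets between -1.52, a bound, and -0.25. Mitochondrial Aldh2 gave 3100 units in eosinophils, against 2913 units in dendritic cells, while its 3 probe sets lay between 0.03 and 0.14. Activity assays that use a general aldehyde substrate were not analysed here.

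The genes nearest to Aldh1a2 in floored log2 signal over the 2 arrays were Irf4 (distance 0.048), Gpr85 (0.048) and Ryr1 (0.079). Those nearest to Rxra were Herc1 (0.061), Cryzl1 (0.094) and Ssbp2 (0.094). The eosinophil signals of Aldh1a2, Irf4 (44.4 units) and Gpr85 (91.7 units) were under the floor and set to it. They add nothing to these distances, which compare only the dendritic cell signals. With 2 arrays, nearness means only a like pair of floored brightness values.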
